A study of Hydra viridissima with 4 samples.

Results

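Strict symbiotic-only regions are stretches of the genome of the green hydra, Hydra viridissima, that were listed as clearly open in both libraries from animals with algae and as open in neither library from animals without them. Merging all peaks of the 4 deposited lists wherever they shared at least 1 bp gave 117973 regions, and 1094 of them met this rule, which is 0.927% of all regions. A region was kept when both symbiotic lists held an overlapping peak with a -log10 q of at least 4, a false discovery rate of at most 0.0001, and when neither aposymbiotic list held any overlapping peak at the lists' own limit of 0.01. The rule chose the members by the peak calls of all 4 libraries, so the members were chosen by measured values, and their number and strength are given as a description with no test. Positions are scaffold, start and end in the assembly of the lists, whose name is not given here.

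Green hydra is a freshwater polyp that keeps unicellular green algae inside the epithelial cells lining its gut. The algae pass sugars to the host, and the host can be freed of them and kept as an aposymbiotic animal. ATAC-seq marks open chromatin with the transposase Tn5, which cuts where DNA is not wrapped in nucleosomes. Such sites include promoters and distal regulatory elements such as enhancers, and in a whole animal they are read from all cell types at once.

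Chromatin of whole animals of clone 2 was profiled in 2 groups of 2 biological replicates, aposymbiotic and symbiotic (labelled green/symbiotic). Each library came from 50 pooled large animals without buds or gonads, kept at 24 °C on brine shrimp, last fed 2 days earlier and held in sterile-filtered medium with penicillin and streptomycin. These conditions were shared by both groups, and all animals were of this single clone. Fewer cells of a type and less open chromatin per cell cannot be told apart in such whole-animal libraries. The lists held 21481 and 78594 peaks in aposymbiotic replicates 1 and 2 and 31072 and 87128 peaks in symbiotic replicates 1 and 2. Read totals are unknown, but the background pileup recovered from the peak values was 9.39 and 16.69 tags in the aposymbiotic and 6.80 and 13.46 tags in the symbiotic libraries, so the aposymbiotic library was the deeper one of each replicate number by this measure.

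The 1094 strict regions were moderately open sites. In symbiotic replicate 1 their fold enrichment, which is the pileup at the summit over the local background, was 2.49 at the lowest, 3.20 at the median and 12.4 at the highest. In symbiotic replicate 2 the fold was 2.02 at the lowest, 2.75 at the median and 5.46 at the highest. These folds came from 23 to 96 tags at the summit in replicate 1, with a median of 27, and from 33 to 88 tags in replicate 2, with a median of 47. At the median, the members stood at percentile 64.6 of fold within the list of symbiotic replicate 1 and at percentile 64.4 within that of replicate 2. The upper quartile of the members was at percentiles 74.9 and 79.7, so most were above the middle of each list and short of its strongest peaks. Of all peaks, 51.4% in symbiotic replicate 1 and 71.6% in replicate 2 had a -log10 q of at least 4. A place above the middle therefore follows in part from the rule.

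The -log10 q of the weaker library was 4.92 at the median over the members and 28.0 at the highest. It lay under 5 in 571 members and reached 10 in 22 members. By -log10 q, replicate 1 was the weaker library in 839 members, or 76.7%. By fold the order was the other way, with replicate 1 above replicate 2 in 886 of the 1094 members. Weaker therefore refers to the -log10 q alone, and the lists differ in background and length. Among the 3700 regions called in both symbiotic and neither aposymbiotic list at any strength (3.14% of all regions), the minimum of 4 was met in both lists by the 1094 members, in replicate 2 alone by 1663, in replicate 1 alone by 252 and in neither by 691. More regions missed the limit of 4 in replicate 1, the library with the lower background pileup, than in replicate 2.

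**Figure D1:**
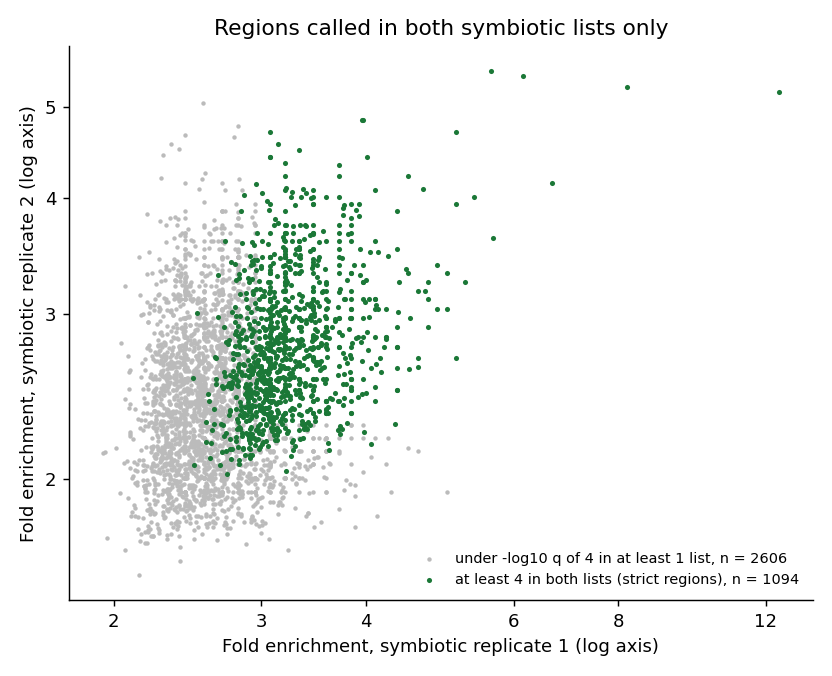
Each point is a region called in both symbiotic and neither aposymbiotic list, with its fold enrichment in symbiotic replicate 1 on the horizontal and in replicate 2 on the vertical log axis. Green points are the 1094 strict regions, whose folds run from 2.49 to 12.4 in replicate 1 and from 2.02 to 5.46 in replicate 2, and grey points are the regions under the limit in at least 1 list.

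Members near the limit of 4 show how gradual it is. Just inside it was the region scaffold_11:10979637-10979915, with a -log10 q of 4.0011 in symbiotic replicate 1 and 5.85 in replicate 2. Next came scaffold_8:10045865-10045993, with 4.57 and 4.0014, and scaffold_3:2886504-2886657, with 4.0039 and 4.40. Just outside were scaffold_8:12568855-12569023, with 3.9995 and 4.80, scaffold_6:1071318-1071713, with 3.9985 and 12.1, and scaffold_6:4297223-4297403, with 3.9975 and 8.98. In replicate 2 the last 2 of these exceeded the median of 7.45 over the members.

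Strong openness in both symbiotic lists seldom came without an aposymbiotic peak. Of the 12692 regions that met the limit in both symbiotic lists, 1094 had no aposymbiotic peak, a share of 8.62%. A further 3796 regions had a peak in aposymbiotic replicate 2 alone, 252 in replicate 1 alone and 7550 in both. The mirrored rule gave 309 regions, 0.262% of all regions and 3.66% of the 8446 regions that met the limit in both aposymbiotic lists. The lists differ in length, and with all lists trimmed to the 21481 strongest peaks the counts came closer, at 1374 symbiotic-only and 848 aposymbiotic-only regions. Of the 1094 members, 372 overlapped a region of the trimmed set. The count of members also rests on single libraries, since it was 2664 without symbiotic replicate 2, 4934 without aposymbiotic replicate 2 and 20652 without symbiotic replicate 1. The mirrored count was 489 without symbiotic replicate 1, 901 without aposymbiotic replicate 2, 1718 without symbiotic replicate 2 and 10785 without aposymbiotic replicate 1.

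The share without an aposymbiotic peak was lower in each stronger class. Among regions whose weaker symbiotic -log10 q lay between 4 and 5, 571 of 3375 had none, or 16.9%. The share was 11.2% between 5 and 6, 8.33% between 6 and 8, and 4.06% between 8 and 10. At 10 or more it was 0.639%, or 22 of 3443 regions, and 92.6% of that class had a peak in both aposymbiotic lists. In the mirrored classes of regions strong in both aposymbiotic lists, the share without a symbiotic peak was 6.04%, 6.81%, 4.57%, 2.63% and 1.02%. By these classes, the surplus of symbiotic-only over aposymbiotic-only regions held at low and middle strength and not in the strongest class. There, 22 symbiotic-only regions stood beside 33 aposymbiotic-only regions. The classes use the q of lists that differ in length and background, so a class need not mean the same openness in both conditions.

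**Figure D2:**
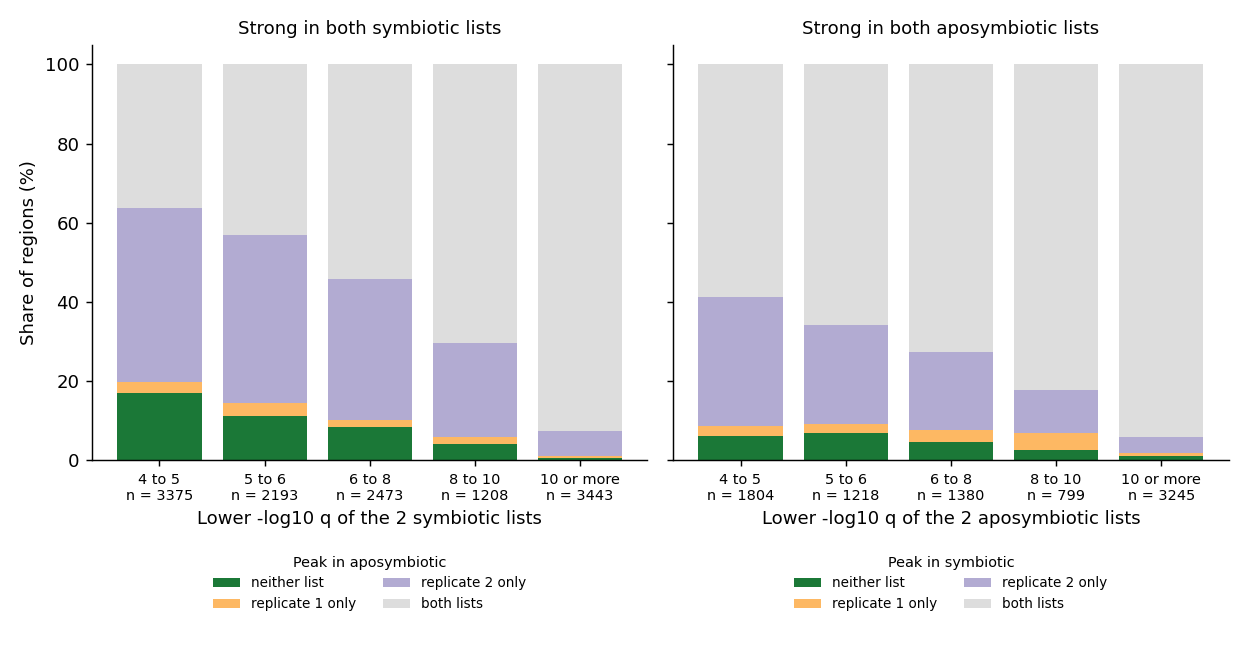
Bars give the share of regions, in percent, with a peak in neither, 1 or both lists of the other condition, by class of the lower -log10 q in the condition named above each panel. In the left panel the green part, the strict symbiotic-only regions, shrinks from 16.9% of the weakest to 0.639% of the strongest class. In the right panel the green part is the strict aposymbiotic-only regions, with 6.04% of the weakest class, 6.81% of the next and 1.02% of the strongest.

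No value exists in an aposymbiotic list where no peak was called, so the size of the difference cannot be given for any region. The lowest fold listed for a peak over the genome-wide background was 2.21 in aposymbiotic replicate 1, at 22 tags, and 1.86 in replicate 2, at 32 tags. The corresponding floors of the symbiotic lists were 2.43, at 18 tags, and 1.94, at 27 tags, both above those of the aposymbiotic list of the same number. These floors apply at sites with the genome-wide background. There, a fold above the aposymbiotic floor follows from the choice of members, and it says nothing about the difference at any member. A higher local background raises the tags that a call needs and lowers the fold. A region outside the members, for example, was listed in symbiotic replicate 1 at a fold of 1.94 and a -log10 q of 2.0003. In 757 members (69.2%) the local background in symbiotic replicate 1 exceeded the genome-wide value, as it did in 782 members (71.5%) in replicate 2, by up to 2.17 and 2.37 times. Of all peaks of these lists, 30.8% and 30.4% matched the genome-wide background, so in this the members were close to the lists as a whole.

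Summits of the members lay close together in the 2 symbiotic libraries. The position of the summit was not used by the rule beyond the overlap of the peaks. The distance between the strongest summits of both lists was 24.5 bp at the median over 1094 members, and it was at most 20 bp in 497 of them (45.4%) and over 100 bp in 194 (17.7%). For the 12692 regions strong in both symbiotic lists the median was 21 bp, with 49.3% at 20 bp or less. The 309 mirrored regions had a median distance of 17 bp between the aposymbiotic summits. Both summits lay inside the overlap of both peaks in 847 members, or 77.4%, and in 82.4% of the strong symbiotic regions. By these medians and shares, with strength not matched, the summits of members were placed slightly less closely than those of all strong regions. A distance over 100 bp was less common in members, with 17.7% against 20.4%.

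Placement was sharper in the stronger members. The median summit distance was 31 bp in the 571 members with a weaker -log10 q between 4 and 5, 24 bp between 5 and 6, 19 bp between 6 and 8, 11 bp between 8 and 10, and 5 bp in the 22 members at 10 or more. Within every class, members had closer summits at the median than regions with an aposymbiotic peak. Regions of the same classes that did have such a peak had medians of 45, 33, 28, 20 and 9 bp. Those regions were also wider and had several summits more often, in the class from 4 to 5 with 273 bp against 174 bp and 55.9% against 33.1% in replicate 2, and the part of this in the distances was not tested. Where both peaks had a single summit, the median was 19 bp over 660 members and 14 bp over 5599 regions strong in both symbiotic lists. Fold enrichment itself was less alike between the libraries. Across the 1094 members the folds of the symbiotic replicates had a Spearman correlation of 0.32 and a Pearson correlation of 0.39, against 0.64 and 0.86 across the 12692 strong symbiotic regions. Members cover a narrow range of folds by their choice, and all points share the same pair of libraries.

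As merged regions, members were wider at the median than all regions and narrower than regions strong in both symbiotic lists. The merged region was 207.5 bp wide at the median over the members, 169 bp over all regions and 354 bp over the 12692 regions strong in both symbiotic lists. The peak in symbiotic replicate 1 was 127 bp wide at the median over the members and 137 bp over all regions called in that list, and in replicate 2 the medians were 176 bp and 164 bp. Regions strong in both symbiotic lists that had an aposymbiotic peak were wider in both libraries, with medians of 177 bp and 274 bp. The peak had several summits in 13.8% of members in replicate 1 and 33.0% in replicate 2, close to the 14.0% and 29.1% of all peaks of these lists, against 25.6% and 51.1% of those regions with an aposymbiotic peak. The order between members and regions with an aposymbiotic peak held in every class of strength for width and for the share with several summits. In the class from 4 to 5, for example, the median widths were 126 bp and 174 bp in members and 150 bp and 273 bp in regions with an aposymbiotic peak. In the class of 10 or more they were 120.5 bp and 120 bp against 207 bp and 265 bp. A wide region offers more bases that an aposymbiotic peak could overlap, so width is tied to the rule and these values are a description.

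As merged regions the members spanned 88 to 890 bp. In 1069 of them, or 97.7%, each symbiotic list held exactly 1 peak, as in 85.8% of regions strong in both symbiotic lists. Of the 309 mirrored regions, 97.7% likewise had exactly 1 peak in each aposymbiotic list. The widest member was scaffold_11:4418162-4419051, with folds of 2.60 and 2.47 in symbiotic replicates 1 and 2 and its strongest summits 2 bp apart. The next were the 834 bp of scaffold_3:12185966-12186799, with summits 269 bp apart, and the 767 bp of scaffold_3:16229484-16230250, with summits 4 bp apart. The folds of these 3 lay between 2.38 and 2.92 in both libraries.

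The 25 strongest members, ranked by the lower of their percentiles of fold in the symbiotic lists, lay on 13 scaffolds, 5 of them on scaffold 1 and 3 on scaffold 8. Their folds ran from 3.97 to 12.4 in symbiotic replicate 1 and from 3.32 to 5.46 in replicate 2, on 30 to 96 and 47 to 78 tags. Their summits were 7 bp apart at the median and within 20 bp in 20 of them. With a median width of 155 bp, 18 of the 25 were narrower than the median member. The nearest aposymbiotic peak lay within 1 kb in 8 of the 25, against 62.5% of all members and 65.5% of all regions. It lay beyond 5 kb in 2 of the 25, against 4.30% of all members and 3.25% of all regions.

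The top member was scaffold_1:41423632-41423786. It had 63 tags in symbiotic replicate 1 and 75 in replicate 2, with summits 8 bp apart. Its nearest aposymbiotic peaks were 2652 bp away in replicate 1 and 1916 bp away in replicate 2. The fourth, scaffold_1:41434312-41434401, followed it by 10525 bp, with 51 and 59 tags. Around both, the nearest region called in all 4 libraries was 328306 bp and 338986 bp away, against a median of 7205 bp over all members, so these neighbours stood in a stretch with no region shared by every library. Both sit at the end of the listed part of scaffold 1, 11247 bp and 632 bp before its last peak end, so nearly all other regions lie on one side of them. The lone position was not general, since the second member, scaffold_6:3607400-3607645 with 96 and 74 tags, had such a region 6152 bp away.

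Among the members ranked 3 to 10, summits agreed closely as well. At scaffold_3:11001105-11001227 there were 47 tags in symbiotic replicate 1 and 77 in replicate 2, with summits 3 bp apart. At scaffold_10:2642507-2642625 there were 43 and 78 tags and summits 2 bp apart, and the nearest aposymbiotic peak was 12267 bp away. The regions scaffold_12:11132797-11132929, with 43 and 67 tags, and scaffold_8:8517883-8517997, with 39 and 56 tags, also had summits 2 bp apart. On scaffold 12 a separate peak of aposymbiotic replicate 2 lay 228 bp away. The members scaffold_9:14246639-14246814, scaffold_1:20818296-20818389 and scaffold_2:1637399-1637506 had 39 to 45 tags in replicate 1 and 57 to 67 in replicate 2. The member on scaffold 1 had its nearest peak of aposymbiotic replicate 1 at 68065 bp and of replicate 2 at 3147 bp.

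The members ranked 11 to 25 had folds between 3.97 and 5.00 in replicate 1 and between 3.32 and 4.84 in replicate 2. At scaffold_7:9633548-9633638 the folds were 4.48 and 4.22, on 34 and 60 tags, and both lists placed the summit at the same base. At scaffold_23:329931-330093 they were 4.36 and 3.53, on 34 and 50 tags, with summits 1 bp apart. The member scaffold_2:10390551-10391010 had a higher fold in replicate 2, with 3.97 and 4.84, on 30 and 74 tags, and so did scaffold_8:10667212-10667388, with 4.01 and 4.43. At scaffold_10:17332322-17332480 the folds were 4.10 and 4.08, and at scaffold_1:10733706-10733844 they were 4.36 and 3.87. These folds come from lists with different backgrounds and are set side by side only.

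Some strong members had aposymbiotic peaks close by. At scaffold_8:4059852-4060009, with folds of 4.87 and 3.39, peaks of aposymbiotic replicates 1 and 2 lay 243 bp and 225 bp away. At scaffold_11:14806884-14807023, with folds of 4.47 and 3.36, a peak of aposymbiotic replicate 2 was 175 bp away. At scaffold_6:16487275-16487621 the folds were 4.14 and 3.50, the summits were 151 bp apart and a peak of aposymbiotic replicate 2 was 178 bp away. The member scaffold_6:1067209-1067462 had folds of 4.25 and 3.47 and such a peak at 879 bp. Here the lists of both conditions held peaks within the same kilobase, at separate sites.

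Summits lay farthest apart among the 25 at scaffold_11:7905643-7905961, by 214 bp, and less so at scaffold_13:5980567-5980921, where they were 40 bp apart. Their folds were 3.97 and 3.39, and 4.10 and 3.60. The members scaffold_9:17067105-17067355, with folds of 4.05 and 3.50, and scaffold_1:3166393-3166519, with 5.00 and 3.32, had summits 16 bp and 3 bp apart. Where regions are sparse, on scaffold 16, the member scaffold_16:8953430-8953518 had folds of 4.48 and 3.32, and its nearest aposymbiotic peaks were 251179 bp away in replicate 1 and 13215 bp away in replicate 2.

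Aposymbiotic peaks lay about as near to the members as to other regions. The nearest separate peak of either aposymbiotic list was 660.5 bp away at the median over the members and 597 bp over all regions. It was within 1 kb in 684 of the 1094 members, or 62.5%, against 65.5% of all regions, and within 500 bp in 41.9% against 44.6%. The member share within 1 kb was 39.9% for aposymbiotic peaks at the limit of 4 and 21.7% without aposymbiotic replicate 2. In 75 members, or 6.86%, it was within 100 bp, against 6.90% of all regions. By library, a peak of aposymbiotic replicate 1 lay within 1 kb of 237 members, 21.7%, and a peak of replicate 2 within 1 kb of 655, 59.9%. Over all 117973 regions the shares were 21.9% and 63.3%. In replicate 2 the member share fell with strength. It was 64.3% in the class from 4 to 5, 51.9% from 6 to 8 and 40.9% at 10 or more. Regions of these classes with an aposymbiotic peak had 66.9%, 66.5% and 55.1%. In replicate 1 members had the lower share in every class but the last, which held 22 members, with 22.7% against 21.0%. The reason was not tested. In 47 members, or 4.30%, no aposymbiotic peak lay within 5 kb, against 3.25% of all regions.

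**Figure D3:**
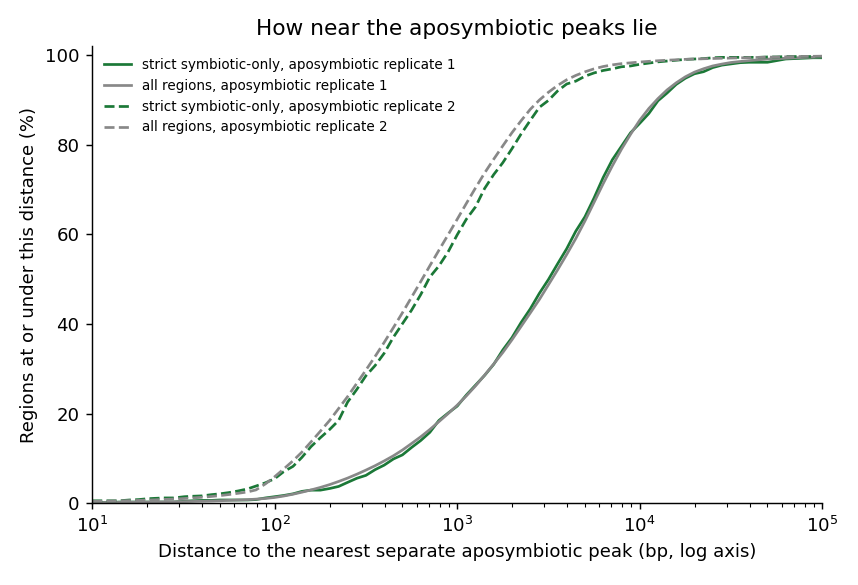
Curves give the percent of regions whose nearest separate aposymbiotic peak lies within the distance on the horizontal log axis, for the 1094 strict regions (green) and all 117973 regions (grey), by aposymbiotic replicate. At 1 kb the curves for replicate 1 stand at 21.7% and 21.9%, and those for replicate 2 at 59.9% and 63.3%.

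The member farthest from any aposymbiotic peak was scaffold_12:15868216-15868351, 149555 bp from the nearest, and it held the last peak end of that scaffold in any list. It had 27 and 34 tags in symbiotic replicates 1 and 2. The next were scaffold_15:4270749-4270915, with the nearest aposymbiotic peak at 89050 bp, and scaffold_1:493357-493666, with 78082 bp. These had folds of 3.59 and 2.91, and of 3.33 and 2.49.

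Peaks next to a member, but outside it, were compared over libraries. The rule did not use them directly, but it removed regions that an aposymbiotic peak reached into. The comparison is therefore not independent of the choice of members. A separate peak lay within 1 kb of 365 members (33.4%) in symbiotic replicate 1 and of 761 (69.6%) in replicate 2, against the 21.7% and 59.9% in the aposymbiotic replicates. The symbiotic share was thus higher by 11.7 percentage points within replicate 1 and by 9.69 points within replicate 2. The means were 51.5% ± 25.6 (SD, n = 2) in symbiotic and 40.8% ± 27.0 (SD, n = 2) in aposymbiotic libraries. Their difference was 10.7 points (two-sided exact permutation p = 0.667, where 2 against 2 libraries allow no p below 0.333). That test ignored the replicate number, and the SDs hold the gap between replicates 1 and 2, whose lists differ in length. With the replicate number as a block, p was 0.5 by exact sign flips, the smallest possible with 2 pairs. Neither test can settle the difference with so few libraries.

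The symbiotic lists were the longer ones of each replicate number, and their shares were also higher around all regions. Around all regions the symbiotic share was higher by 7.82 points in replicate 1 and 5.49 points in replicate 2, and around the 309 aposymbiotic-only regions by 6.47 points and by -0.32 points. With the lists trimmed to 21481 peaks each, the shares around the members were 24.1% in both symbiotic libraries and 21.7% and 20.6% in aposymbiotic replicates 1 and 2. The difference was then 3.02 points (two-sided exact permutation p = 0.333, the smallest possible). Because a region beside which an aposymbiotic peak reached into it was removed by the rule, the neighbourhood is not wholly free of the choice of members. Leaving out aposymbiotic replicate 1 turned the difference to -8.41 points and leaving out symbiotic replicate 2 to -7.40 points, while it was 28.8 points without symbiotic replicate 1 and 29.8 points without aposymbiotic replicate 2, since these settings set lists of unlike length against each other.

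**Figure D4:**
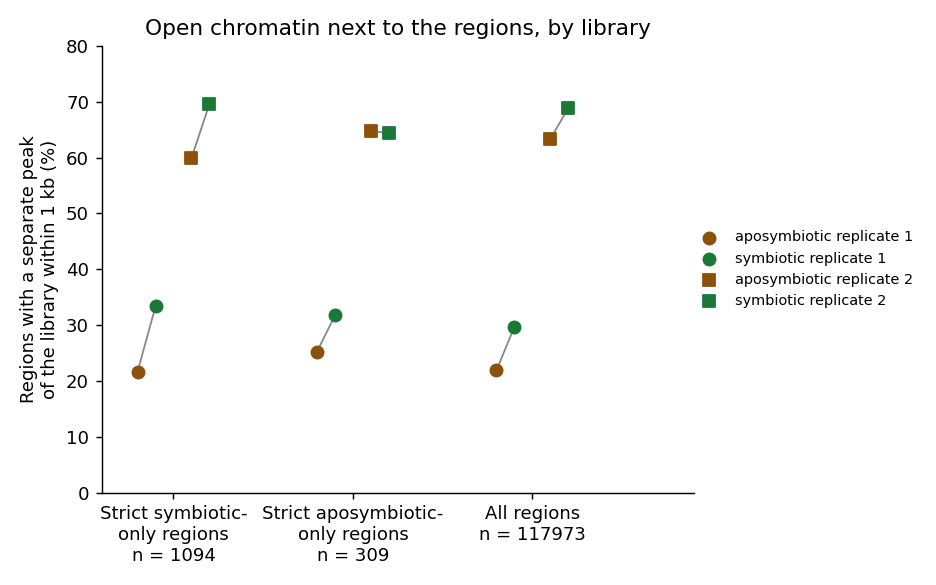
Points give the percent of regions with a separate peak of each library within 1 kb, for the strict symbiotic-only, strict aposymbiotic-only and all regions, with lines joining libraries of the same replicate number. Around the 1094 strict symbiotic-only regions the symbiotic library stands 11.7 and 9.69 points above the aposymbiotic one.

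The neighbours of the members were of the usual kinds. The nearest other region was 357.5 bp away at the median, against 359 bp over all regions. It had been called in a single list for 565 members (51.6%), in both replicate 2 lists alone for 207 (18.9%) and in all 4 lists for 90 (8.23%). Over all regions these shares were 51.5%, 20.4% and 8.46%. It was a region called in both symbiotic lists alone for 47 members, 4.30% against 3.20% of all regions, and in both aposymbiotic lists alone for 8, 0.731% against 1.05%. The median distance to a region called in all 4 libraries was 7205 bp for members and 7212 bp for all regions.

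Members were spread singly along the genome. The nearest other member was 77948 bp away at the median, and 52 members (4.75%) had one within 5 kb, while 5.37% of all regions had a member within that distance. When members within 10 kb of each other were joined, 994 stood alone, 96 formed 48 pairs and 4 formed a single run. That run was scaffold_8:16021849-16037864. Its members had folds of 3.77, 2.99, 2.92 and 2.71 in symbiotic replicate 1 and of 2.59, 2.39, 2.48 and 2.22 in replicate 2, in order of position. The closest members were on scaffold 12, scaffold_12:3354254-3354482 and scaffold_12:3354610-3354888, with a gap of 127 bp. Their folds were 3.19 and 3.18 in the first and 3.51 and 2.77 in the second. The next closest pair, with a gap of 131 bp, was the end of the run on scaffold 8, and the third, with 222 bp, was on scaffold 4, scaffold_4:3940790-3941081 and scaffold_4:3941304-3941407, with folds of 3.14 and 2.83 in the first and 3.44 and 2.96 in the second.

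The 14 scaffolds with at least 1000 regions held 1084 of the members, 0.925% of their regions. By scaffold this share ran from 0.780% on scaffold 7, with 68 members, to 1.13% on scaffold 8, with 106, around the 0.927% of the whole set. Scaffold 2 held the most members, 127, and scaffold 1 held 125. Per Mb of scaffold up to its last peak there were between 2.25 members on scaffold 14 and 5.84 on scaffold 8. The other 10 members lay among the 756 regions of 14 smaller scaffolds, a share of 1.32%, with 4 on scaffold 16, 2 on scaffold 23 and 1 each on scaffolds 15, 17, 18 and 19. No test over regions was made, so no scaffold is set apart from the rest.

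**Figure D5:**
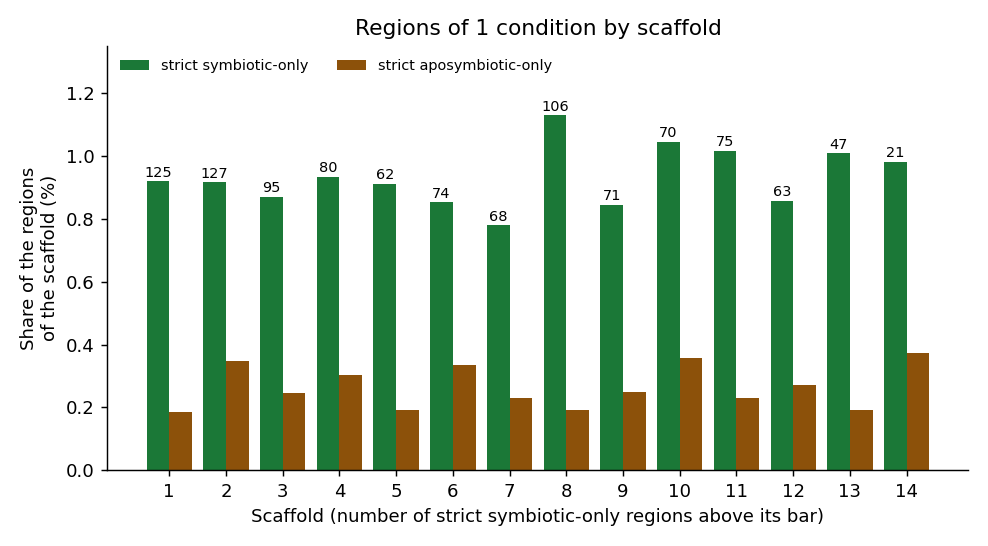
Bars give the strict symbiotic-only (green) and strict aposymbiotic-only (brown) regions as a percent of all regions of each of the 14 large scaffolds, with the number of strict symbiotic-only regions above its bar. The green bars run from 0.780% on scaffold 7 to 1.13% on scaffold 8 and exceed the brown bar on all 14 scaffolds shown.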

How the data were processed

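The submitters' processing notes name MACS3 3.0.4, deepTools, Bowtie2 2.5.4 and Trim Galore 0.6.10. Their settings and the genome assembly are not given here. A list per library was deposited by the authors, so peaks were called separately. Each deposited peak line carries a fold enrichment (a ratio of summit pileup to background), the -log10 p-value and -log10 q-value of the summit, a score of 10 times the -log10 q and the summit offset. Lists start at a -log10 q of 2. Lines with the same interval were taken as 1 peak with the values of the strongest summit. Each peak's fold and q are the authors' own and were not rescaled between lists. Where values of different lists stand side by side, as in the classes of strength, the lists differ in background and length. Date-like tags in the deposited peak names, read as month and day, place the symbiotic library 1 day after the aposymbiotic one of the same number, so tag and condition cannot be told apart.

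Tags at a summit and its local background were solved from fold and p-value, which matched within 0.01 on the -log10 scale for all 1094 members in both symbiotic lists. They carry counting error, and whether a tag is a read or a fragment is not given. Distances run between region edges to peaks outside the region. For the neighbourhood shares, an exact permutation test (two-sided) was run over the 4 libraries. Nothing in the labels says that the replicates are separate cultures beyond the word biological, so p-values measure the spread between these samples. The members, sets and alternatives were chosen with earlier results of these data known. The regions named are the 25 with the highest lower percentile of fold, the 3 closest pairs, the 3 widest, the 3 farthest from an aposymbiotic peak, and 3 on each side of the limit of 4; the run of 4 was added after its values were seen. Procedures were tested on simulated lists. Sequences, GC content, motifs and genes were not analysed here. Python 3.11.15, numpy 2.4.6, pandas 2.3.3, scipy 1.17.1 and matplotlib 3.10.9 were used. Coordinates are counted from 1.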

Additional observations from a re-analysis of the deposited data

How the results depend on the processing

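The number of strict symbiotic-only regions, 1094, became 3700 with no limit beyond the lists' own, 523 with the limit at 5, 22 with the limit at 10 and 636 where no aposymbiotic peak lay within 500 bp. It was 1374 at equal list length and 1306 with windows of 200 bp around summits. Equal lengths within each replicate number removed no peak at the limit of 4, so the 1094 found there is no check of the count. The 309 aposymbiotic-only regions became 1204, 200, 33 and 181 under the first 4 of these settings and 848 at equal list length. They became 439 with windows of 200 bp around summits and 401 with equal lengths within each replicate number. Leaving out 1 library gave 1358 to 20652 symbiotic-only and 489 to 10785 aposymbiotic-only regions, by fewer lists having to agree.

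The difference in neighbourhood shares was 10.7 points with the replicate block (p = 0.5 by exact sign flips, which cannot go lower with 2 pairs) and 3.02 to 12.8 points under the other settings, and leaving out 1 library gave -8.41 to 29.8 points. The share of members with an aposymbiotic peak within 1 kb, 62.5%, was 95.7% within 5 kb, 41.9% within 500 bp and 39.9% for aposymbiotic peaks at the limit of 4, and 21.7% to 59.9% with 1 aposymbiotic library left out. The median summit distance was 18 bp for the closest summits and 5 bp with the limit at 10, and the median width was 136 bp with that limit and 127 bp for the peaks of symbiotic replicate 1. GC content was not run, as no genome was used here. No member had fewer than 23 tags at its summit in symbiotic replicate 1 or 33 in replicate 2. These lowest counts follow from the limit of 4 and the background pileup of each list, and an effect of depth was not tested.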
